A study of Mus musculus with 3 samples.

Results

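*Cxcr5*, *Icos*, *Cd28*, *Cd40lg*, *Il21* and *Il4* are 6 of the 25759 genes counted in RNA-seq libraries of follicular regulatory T (TFR) cells, and were chosen by name for their place in follicular homing and B-cell help. CXCR5 is the receptor for the chemokine CXCL13 and brings T cells and B cells into the follicle. There, CD28 and its relative ICOS carry costimulation from B7 ligands and from ICOS ligand, while CD40 ligand, IL-21 and IL-4 are the signals by which follicular helper T (TFH) cells drive B cells to grow, switch class and form germinal centers. TFR cells carry the regulatory factor Foxp3 together with CXCR5, ICOS and CD28, hold back the germinal center response, and are usually taken to make little of the helper cytokines.

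TFR cells were sorted as B220-CD4+BlimpGFP+CXCR5+GITRhi cells from spleen and mesenteric lymph nodes of mice that had received 125 µg NP-KLH in alum, a boost on day 7 and the sort on day 10. There was 1 library for each of 3 genotypes, with no replicates. The library labelled N is NFATc1-deficient (Nfatc1fl/fl.Prdm1gfp/+.FIC), αA is NFATc1/αA-overexpressing (Nfatc1caaA. Prdm1gfp/+.FIC) and PαA is in addition Blimp-1-deficient (Nfatc1caaA.Prdm1gfp/fl.FIC). All 3 carry 1 *Prdm1*-gfp allele, which reports Blimp-1 (the product of *Prdm1*), and FIC, a Cre recombinase made from the *Foxp3* locus. Recombination is thus aimed at cells that turn on *Foxp3*. The study also saw activity of this Cre in some Foxp3-negative T cells, TFH cells included, which it describes as possibly former regulatory cells. No library of unaltered TFR cells was analysed here. How many mice stand behind each library is not given in the sources used here, and age is not either.

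The RPKM values rest on totals of 29726219, 27239921 and 25465829 reads (N, αA and PαA). RPKM divides the exon reads of a gene by its exon length and by the size of the library, so levels can be set side by side between genes of different length. The marker genes of the sort were present in all 3 libraries. *Cd4* stood at 488, 396 and 341 RPKM in N, αA and PαA, and *Tnfrsf18*, which encodes GITR, at 303, 217 and 145. *Foxp3*, which was not part of the sort, stood at 32.7, 20.9 and 15.3 RPKM. *Prdm1* stood at 25.6, 24.9 and 10.0 RPKM, the lowest in the library labelled Blimp-1-deficient. *Nfatc1* stood at 63.6, 62.9 and 32.4 RPKM, as high in the library labelled deficient as in the one labelled overexpressing. RPKM sums reads over all exons of a gene and cannot show which parts of it the transcripts held. The *Nfatc1* labels could therefore not be checked by this level, and N, αA and PαA are the names of labelled libraries in every comparison here. The libraries also differed in where reads fell: introns held 3.01%, 4.56% and 3.29% of all gene reads, the most in αA.

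With 1 library per genotype, no difference could be tested against a spread between mice. Each ratio is therefore given with an exact 95% interval that covers counting error only, and since PCR copies were not marked, reads are not independent molecules and even that error is understated. In sorted bulk cells, fewer cells of one kind and less RNA per cell cannot be told apart. The median ratio of the 7000 to 7004 genes that pass 5 RPKM in 1 or more libraries and have reads in both compared was -0.14 (log2) for αA against N, -0.06 for PαA against αA and -0.19 for PαA against N. TMM scaling moved these medians to 0.02, 0.01 and 0.04, and TPM to -0.17, -0.23 and -0.39. For this reason a ratio is also given relative to the median gene, a difference that none of these scalings can alter.

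The 6 genes covered a wide range of levels. *Icos* was the highest in each library and *Il4* the lowest, with *Cd28* next to *Icos* and *Cxcr5* after it throughout. *Cd40lg* stood above *Il21* in N and PαA and below it in αA. No neighbours in this order had overlapping counting intervals in any of the 3 libraries, with *Cd28* (87.3 RPKM, interval 85.7 to 89.0) and *Cxcr5* (81.3, 79.4 to 83.3) in αA among the closest. All but *Il4* exceeded 5 RPKM in each library, and *Il4* did so in N alone.

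**Figure D1:**
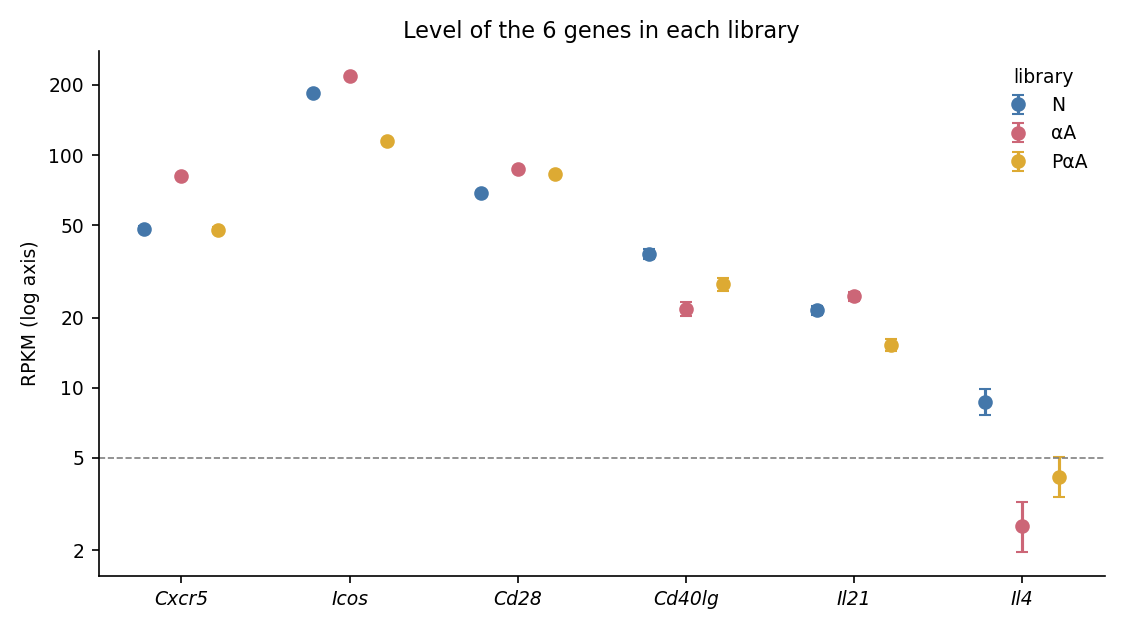
RPKM (log axis) of the 6 genes in the libraries labelled N, αA and PαA, 1 point per library, with 95% Poisson intervals for counting error and a dashed line at 5 RPKM. *Cxcr5* is highest in αA (81.3), *Icos* and *Il21* are lowest in PαA (114 and 15.2), and *Il4* is above the line in N alone (8.69).

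The study's filter asks for a value above 5 in 1 library or more and a difference of more than 2-fold, and was read here as a filter on RPKM. By this rule 1 of the 6 genes, *Il4*, was called in αA against N, where 4.25% of 7017 genes passed in either direction, 1.44% as higher and 2.81% as lower. In PαA against αA 0 of 6 passed, beside 4.63% of all genes (2.18% higher and 2.45% lower), and in PαA against N *Il4* again was the 1 that passed, beside 10.3% (2.57% higher and 7.77% lower). *Il4* entered the filter through its level in N alone, so its call is in part fixed by the filter. With a limit of 1.5-fold, 3 of 6 genes passed in αA against N (*Cxcr5* higher, *Cd40lg* and *Il4* lower), beside 14.1% of all genes (3.12% higher and 11% lower). In PαA against αA 4 of 6 did (*Il4* higher, *Cxcr5*, *Icos* and *Il21* lower), beside 14.7% (5.53% higher and 9.19% lower), and in PαA against N 2 of 6 (*Icos* and *Il4*, both lower), beside 28% (5.67% higher and 22.3% lower). The comparisons share libraries and are therefore not separate pieces of evidence.

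**Figure D2:**
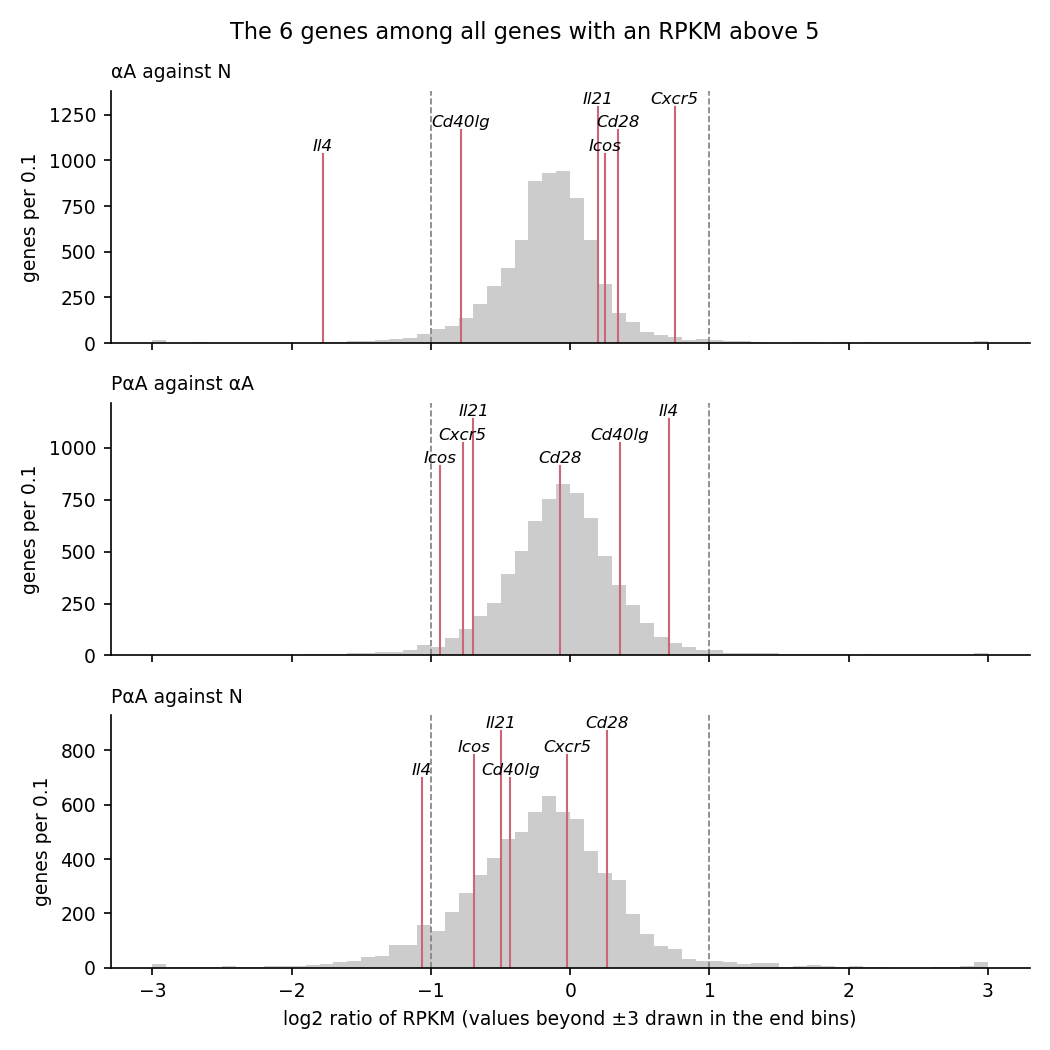
Histograms of the log2 ratio of RPKM (x axis) over genes that pass 5 RPKM in 1 or more libraries (y axis, genes per step of 0.1), for the 3 comparisons, with the 6 genes as red lines and the 2-fold limits dashed. *Il4* lies past the lower limit in αA against N (-1.78) and PαA against N (-1.07), and *Icos* comes close to it in PαA against αA (-0.93).

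*Cxcr5* (ENSMUSG00000047880, GRCm38 chr9:44511787-44561877, minus strand, 9 exons in 4 transcripts) had 4367, 6737 and 3685 exon reads (N, αA and PαA). By RPKM this was 48.3, 81.3 and 47.6, so that αA stood apart and N and PαA lay together. The log2 ratio was 0.75 (0.70 to 0.81) for αA against N and 0.89 relative to the median gene, and 97.8% of the filtered genes had this ratio or a lower one. PαA against αA gave -0.77 (-0.83 to -0.72), or -0.71 relative to the median gene. For PαA against N the ratio of -0.02 (-0.09 to 0.04) had an interval that included 0, and its direction depends on the scaling, being -0.22 with TPM and 0.21 with TMM. CXCR5 protein was itself used to sort the cells, so these are levels within a CXCR5+ gate.

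Between 98.4% and 99.5% of the *Cxcr5* exon reads mapped uniquely. The last 110 bases of the gene overlap *Bcl9l*, a Wnt pathway coactivator gene on the opposite strand, and whether counting used strand is not given in the sources used here. *Bcl9l* held 1228, 981 and 637 reads. Reads of the shared bases are not counted apart in the files, and their part in the *Cxcr5* level was not tested. B cells carry CXCR5 too, and the B220- and CD4+ gates of the sort were set to leave them out. Of 12 B-cell markers, 12 had reads in N and αA and 11 in PαA, and the levels summed to 24.8, 18.5 and 20.5 RPKM. *Cd79b*, part of the B-cell receptor, was the most abundant at 11.5, 8.85 and 8.67 RPKM. The B-cell sum was highest in N and lowest in αA, and its part in the *Cxcr5* result was not tested.

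Reads that cross from one exon into the next made up 0.96% (0.69 to 1.30), 2.32% (1.97 to 2.70) and 1.90% (1.48 to 2.39) of the *Cxcr5* exon reads in the same order. The interval of N lay below the other two. Over all genes this share was 26.0%, 26.2% and 27.5%, so *Cxcr5* gave few such reads in every library.

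Receptors that place lymphocytes in and around the follicle varied in profile. Of 12 receptors in this list, 12 had an RPKM above 1, and 1 was called higher in αA against N (*Ccr7*), 1 in PαA against αA (*S1pr1*) and 2 in PαA against N (both), beside 1.44%, 2.18% and 2.57% of all genes, with none called lower. *Ccr7*, the receptor that holds T cells in the T-cell zone, stood at 18.3, 49.9 and 73.7 RPKM in N, αA and PαA, and so was higher in PαA than in αA, the reverse of *Cxcr5*. *S1pr1*, the receptor for exit into lymph, stood at 55.5, 88.0 and 189 RPKM. Its log2 ratio for PαA against αA was 1.10 (1.06 to 1.14), but with TPM it was 0.94, short of the 2-fold limit. *S1pr2*, which keeps cells in the germinal center, stood at 5.68, 7.01 and 6.13 RPKM and passed the rule in no comparison. The median log2 ratio of the list was 0.24, 0.15 and 0.23 in αA against N, PαA against αA and PαA against N, beside -0.17, -0.08 and -0.24 over all genes above 1 RPKM.

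*Icos* (ENSMUSG00000026009, chr1:60977927-61000320, plus strand) was the most abundant of the 6 genes, with 18786, 20425 and 9993 exon reads, or 184, 219 and 114 RPKM in N, αA and PαA. PαA was the low library, and N and αA lay closer together. PαA against αA gave a log2 ratio of -0.93 (-0.97 to -0.90), just short of 2-fold, and with TPM it passed the limit at -1.10. Of the filtered genes, 2.85% had this ratio or a lower one. αA against N gave 0.25 (0.22 to 0.28), and PαA against N -0.69 (-0.72 to -0.65).

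*Cd28* (ENSMUSG00000026012, chr1:60716800-60773359, plus strand) lies beside *Icos* on chromosome 1, with *Ctla4* between them. It held 8890, 10341 and 9169 exon reads, or 68.8, 87.3 and 82.8 RPKM. Here N was the low library. The log2 ratio was 0.34 (0.30 to 0.39) for αA against N, -0.08 (-0.12 to -0.04) for PαA against αA and 0.27 (0.23 to 0.31) for PαA against N. Relative to the median gene, PαA against αA came to -0.01, so *Cd28* moved there as the median gene did.

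The ratio of *Icos* to *Cd28* within a library needs no scaling between libraries. Per length it was 2.68 (2.61 to 2.75) in N, 2.50 (2.44 to 2.56) in αA and 1.38 (1.34 to 1.42) in PαA. *Ctla4*, which encodes the inhibitory receptor for the same B7 ligands as CD28, stood at 148, 188 and 58.7 RPKM, with a log2 ratio of -1.68 (-1.74 to -1.62) in PαA against αA. These 3 neighbours thus gave 3 different ratios between the same libraries, and each was highest in αA. Introns held 1.78%, 1.12% and 2.33% of the *Icos* gene reads in N, αA and PαA, and 0.79%, 1.21% and 0.56% of the *Cd28* gene reads, and all exon reads of both genes mapped uniquely (100%).

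Of 19 receptors of the CD28 family and other costimulatory or inhibitory receptors, 19 exceeded 5 RPKM. In αA against N 1 was called lower (*Cd6*, a scavenger receptor family gene, at 284, 131 and 102 RPKM) and 1 higher (*Cd27*, of which as few as 19.1% of reads were unique, so its level is uncertain), beside 2.81% and 1.44% of all genes. Neither call held under every scaling: *Cd6* came to -0.96 with TMM, and *Cd27* to 0.97 with TPM. In PαA against αA 3 were called lower, beside 2.45% of all genes: *Ctla4*, *Tigit* and *Tnfrsf9*, the last again with few unique reads. In PαA against N 6 were called lower, beside 7.77% of all genes, and 1 higher, beside 2.57%. The lower ones were *Ctla4*, *Pdcd1*, *Tnfrsf9*, *Tnfrsf18*, *Cd6* and *Slamf1*, and the higher one was *Cd226*, the activating counterpart of *Tigit*. With TMM *Pdcd1* (-0.99), *Tnfrsf18* (-0.84) and *Slamf1* (-0.78) fell short of the 2-fold limit, and the others stayed past it. *Tigit* stood at 526, 732 and 301 RPKM and *Cd226* at 16.5, 24.3 and 39.0. *Pdcd1*, which encodes PD-1, stood at 341, 205 and 147 RPKM. The list median was -0.24, -0.35 and -0.69 in the 3 comparisons.

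Genes downstream of CD28 and ICOS were closer to the median gene. Of 20 genes, 17 exceeded 5 RPKM, and the 2-fold rule called 0 in αA against N and 0 in PαA against αA. The list median was -0.20, -0.23 and -0.50.

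*Cd40lg* (ENSMUSG00000031132, chrX:57212143-57224042, plus strand) encodes CD40 ligand, the membrane-bound helper signal. It held 1396, 742 and 887 exon reads, or 37.6, 21.8 and 27.9 RPKM in N, αA and PαA. αA was the low library, the reverse of *Cxcr5*, and no 2 counting intervals overlapped. The log2 ratio was -0.79 (-0.92 to -0.66) for αA against N, and 5.60% of the filtered genes had this ratio or a lower one. It was 0.35 (0.21 to 0.50) for PαA against αA and -0.43 (-0.55 to -0.31) for PαA against N. Introns held 3, 16 and 2 of its reads.

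*Il21* (ENSMUSG00000027718, chr3:37222759-37232636, minus strand) encodes the cytokine that supports germinal center B cells and plasma cells. It held 2021, 2124 and 1227 exon reads, or 21.5, 24.7 and 15.2 RPKM. PαA was again the low library, as for *Icos*. The log2 ratio was 0.20 (0.11 to 0.29) for αA against N, -0.69 (-0.80 to -0.59) for PαA against αA and -0.50 (-0.60 to -0.39) for PαA against N. Of its gene reads, 3.07% (2.37 to 3.90) in N, 4.67% (3.83 to 5.63) in αA and 1.21% (0.68 to 1.98) in PαA lay in introns, so that PαA had the lowest share of intron reads as well as the lowest exon level.

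*Il4* (ENSMUSG00000000869, chr11:53602982-53618669, minus strand) encodes the type 2 cytokine that drives class switching to IgG1 and IgE. It held 254, 68 and 104 exon reads, or 8.69 (7.66 to 9.83), 2.54 (1.97 to 3.22) and 4.15 (3.39 to 5.03) RPKM in N, αA and PαA. N was the high library, and αA and PαA were both low. The log2 ratio was -1.78 (-2.18 to -1.38) for αA against N, or 3.42-fold lower, and 0.627% of the filtered genes had this ratio or a lower one. *Il4* entered the filter through N alone, so this share, like the call, is in part fixed by the filter. For PαA against N it was -1.07 (-1.41 to -0.73), which passed the 2-fold limit by RPKM and TPM but not by TMM, where it was -0.84. PαA against αA gave 0.71 (0.26 to 1.17). The 68 reads of αA limit how closely the ratios that include it are known.

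*Il21* and *Il4* did not move together. The level of *Il21* per length was 2.48 times that of *Il4* in N (2.17 to 2.83), 9.72 times in αA (7.63 to 12.6) and 3.67 times in PαA (3.0 to 4.53), with no overlap of the intervals. *Il21* against *Cd40lg* gave 0.573 (0.535 to 0.614), 1.13 (1.04 to 1.23) and 0.547 (0.502 to 0.597), so αA stood apart from the other 2 libraries in this ratio.

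**Figure D3:**
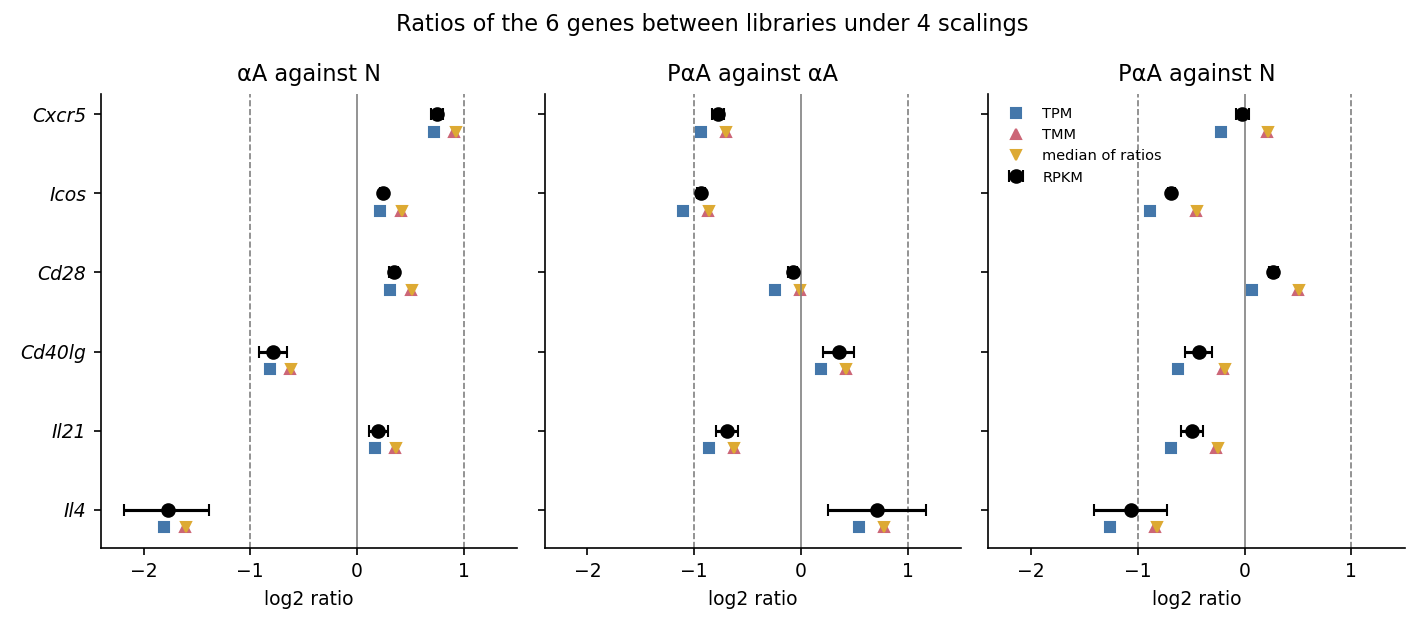
Log2 ratio (x axis) of each of the 6 genes (y axis) in the 3 comparisons, by RPKM with 95% counting intervals (black) and by TPM, TMM and median-of-ratios scaling (coloured), with dashed lines at 2-fold. The order of the genes cannot differ between these scalings, because each shifts all genes of a comparison alike. *Il4* is past the limit under all 4 in αA against N, and *Cxcr5* in PαA against N falls on either side of 0.

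*Il4* also differed in where its reads lay. Introns held 31 of 285 gene reads in N, 78 of 146 in αA and 23 of 127 in PαA, which is 10.9% (7.51 to 15.1), 53.4% (45.0 to 61.7) and 18.1% (11.8 to 25.9). The library with the fewest exon reads thus had the most intron reads. Among the 5176 genes of 1 to 10 RPKM in αA the median intron share was 6.54%, and 1.84% of them had a share as high as that of *Il4*. In N and PαA 19.4% and 14.0% of such genes reached the share that *Il4* had there. Exon-exon reads were 41.3% (35.2 to 47.7), 33.8% (22.8 to 46.3) and 55.8% (45.7 to 65.5) of its exon reads. αA had the highest intron share over all genes too (4.56%), and the part of this in the *Il4* result was not tested.

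**Figure D4:**
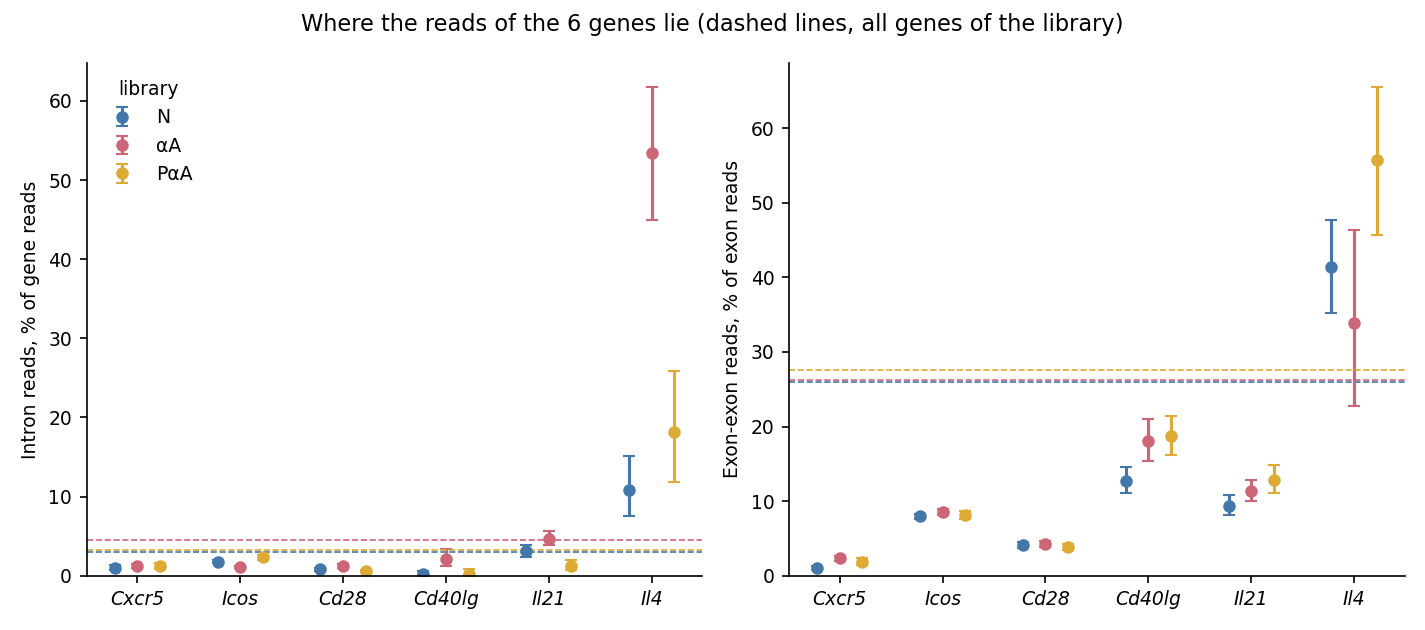
Left, intron reads as a percent of gene reads, and right, exon-exon reads as a percent of exon reads, for the 6 genes in the libraries labelled N, αA and PαA, with exact 95% binomial intervals and dashed lines for all genes of each library. *Il4* in αA stands apart on the left at 53.4%, and the other 5 genes lie below 5% in each library.

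The start of *Il4* and *Il21* is shown because RefSeq windows on GRCm38.p6 matched only these 2 of the 6 genes, with 1 start for *Il21* and 2 for *Il4*. NFAT factors are known to act on both genes. Whether the windows bear on the ratios between these libraries was not tested. Each sequence is the 250 bases before the start, read 5′ to 3′ along the gene, with GGAAA, the core bound by NFAT factors, and its reverse complement TTTCC in capitals.
*Il4*, outer start, chr11:53618666-53618915, minus strand: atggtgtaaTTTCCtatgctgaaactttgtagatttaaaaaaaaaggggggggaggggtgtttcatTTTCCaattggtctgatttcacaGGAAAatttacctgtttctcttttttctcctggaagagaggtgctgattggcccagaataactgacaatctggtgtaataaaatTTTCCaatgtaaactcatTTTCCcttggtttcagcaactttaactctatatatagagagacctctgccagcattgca
*Il4*, inner start, chr11:53617339-53617588, minus strand: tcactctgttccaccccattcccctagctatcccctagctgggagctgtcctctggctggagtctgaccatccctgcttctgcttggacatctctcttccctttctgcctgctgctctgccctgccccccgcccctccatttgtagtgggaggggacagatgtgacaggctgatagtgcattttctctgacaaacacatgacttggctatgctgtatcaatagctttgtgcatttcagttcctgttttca
*Il21*, chr3:37232637-37232886, minus strand: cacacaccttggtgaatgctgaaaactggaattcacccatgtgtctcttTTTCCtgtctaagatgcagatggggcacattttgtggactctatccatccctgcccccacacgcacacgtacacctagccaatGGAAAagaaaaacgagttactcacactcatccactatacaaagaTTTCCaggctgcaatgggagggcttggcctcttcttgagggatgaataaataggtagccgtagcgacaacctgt

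The outer *Il4* window held 5 matches to GGAAA on either strand, the inner one 0 and the *Il21* window 3. Of 32851 such windows in the RefSeq table, which overlap where a gene has several starts, 55.6% held at least 1 match, 6.39% held 3 or more and 0.390% held 5 or more. In the outer *Il4* window the matches began 241, 184, 161, 77 and 59 bases before the start, and in the *Il21* window 201, 118 and 74 bases before it. GNGAAAG, the core of a Blimp-1 site, was searched on both strands as well and was found in 0 of these 3 windows, beside 19.4% of all windows. Its form GGGAAAG also holds GGAAA, so the 2 searches overlap. A match is a run of letters and was not measured as a bound site here.

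The list of B-cell help ligands and cytokines, which holds *Cd40lg*, *Il21* and *Il4*, had 16 genes, 12 of them above 1 RPKM and 9 above 5. In αA against N 1 was called higher (*Il10*) and 2 lower (*Il4* and *Il13*), beside 1.44% and 2.81% of all genes. In PαA against αA 1 was called lower (*Il10*), beside 2.45%, and in PαA against N 2 lower (*Il4* and *Il13*), beside 7.77%. The list median was -0.57, -0.27 and -0.60 in the 3 comparisons, beside -0.17, -0.08 and -0.24 over all genes. *Il10*, which encodes an anti-inflammatory cytokine of regulatory T cells, stood at 22.1, 69.4 and 17.4 RPKM, with a log2 ratio of 1.65 (1.54 to 1.77) in αA against N and -1.99 (-2.13 to -1.86) in PαA against αA. It was high in αA, where *Il4* and *Cd40lg* were low. *Tgfb1* and *Tnfsf8*, which encode TGF-β1 and CD30 ligand, stood at 128, 101 and 78.5 RPKM and at 48.8, 36.3 and 26.2 RPKM, and neither passed the rule. *Ifng*, which encodes the type 1 cytokine interferon-γ, stood at 20.5, 18.1 and 24.6 RPKM, and *Il2* had 9, 4 and 29 reads.

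*Il4* lies in the type 2 cytokine locus with *Il13*, *Rad50* and *Il5* on one side, followed by *Irf1*, and with *Kif3a* and *Sept8* on the other. *Il13*, which encodes the sister cytokine of IL-4, held 211, 76 and 52 reads, or 5.89, 2.32 and 1.69 RPKM, and was called lower in αA against N at -1.35 (-1.75 to -0.96). Like *Il4*, it passed the level filter through N alone, so that its call too is in part fixed by the filter. *Il5*, the cytokine of eosinophils, held 52, 3 and 60 reads, and its ratio of -3.99 (-6.31 to -2.36) for αA against N rests on those 3 reads. It did not pass the level filter. The neighbours that encode no cytokine also had their highest values in N: *Rad50*, a DNA repair gene, stood at 4.11, 1.45 and 1.33 RPKM, *Kif3a*, a kinesin gene, at 2.42, 0.875 and 0.194, and *Sept8*, a septin gene, at 2.60, 1.03 and 1.32. All 3 were below the filter's level, with log2 ratios in αA against N of -1.51 (-1.74 to -1.28), -1.47 (-1.85 to -1.10) and -1.34 (-1.60 to -1.09). *Irf1* stood at 57.9, 56.9 and 45.6 RPKM. The median of the 7 genes was -1.47, -0.13 and -1.07 in the 3 comparisons. *Gata3*, the type 2 master regulator, stood at 53.6, 28.7 and 32.3 RPKM and did not pass the rule, at -0.90 (-0.97 to -0.84) in αA against N.

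Cells other than TFR cells can make IL-4, and although the CD4+, CXCR5+ and GITRhi gates would remove mast cells and granulocytes, the markers of these differed between the libraries. Of 8 mast cell, basophil and eosinophil markers, the defining basophil and mast cell genes *Mcpt8*, *Fcer1a*, *Prss34* and *Gata2* had 0 reads in all 3 libraries. Of the other 4, *Cpa3* had 7, 0 and 0 reads, *Ms4a2* 3, 2 and 4, and *Siglecf* 2, 7 and 43. The most abundant of this list was *Hdc* at 2.25, 0.767 and 1.67 RPKM, and the list summed to 2.47, 0.888 and 2.35. Of 9 neutrophil markers, the number with reads was 9 (N), 3 (αA) and 6 (PαA). Their levels summed to 40.0, 1.28 and 28.1 RPKM. *S100a9* was the most abundant over the 3 libraries together, at 235, 0 and 153 reads, and *S100a8* had 185, 11 and 147. αA had the lowest sum of both lists, as it had the lowest level of *Il4* and *Cd40lg*, although single markers differed from this, such as *Cxcr2* with 11, 19 and 0 reads. The part of these cells in those results was not tested. TFH cells share the 6 genes with TFR cells. The BlimpGFP+ and GITRhi gates were set to leave them out, and RNA from any that passed cannot be told apart in these libraries.

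Markers of the remaining cell types gave the following levels in N, αA and PαA. The 7 measured T-cell markers summed to 3110, 3660 and 2848 RPKM, led by *Cd3g*. The 9 regulatory T-cell markers summed to 1088, 1121 and 489 RPKM, led by *Izumo1r*, and PαA had the lowest sum, as it had the lowest level of *Icos* and *Il21*. The 9 measured macrophage and dendritic cell markers summed to 451, 430 and 537 RPKM, led over the 3 libraries together by *Cst3*, the 5 measured plasma cell markers to 96.0, 118 and 159, led in the same way by *Jchain*, and the 7 CD8 T and NK cell markers to 17.7, 25.9 and 23.2, led by *Cd8b1*. *Lyz2* was above *Cst3* in N, *Xbp1* above *Jchain* in N, and *Klrb1c* and *Klrd1* above *Cd8b1* in PαA. The part of these in the results was not tested.

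The receptors that read IL-21 and IL-4, with the other common gamma chain receptors and their kinases and STAT factors, formed a list of 17 genes, 16 of them above 5 RPKM. In αA against N 1 was called lower (*Il9r*), beside 2.81% of all genes, in PαA against αA 2 were called higher (*Il7r* and *Il9r*), beside 2.18%, and in PαA against N 0 were called, beside 10.3%. *Il21r* stood at 58.2, 69.7 and 36.8 RPKM, the same order of libraries as its ligand *Il21*, and *Il4ra* at 21.5, 25.1 and 16.7. *Il7r*, the receptor for the survival cytokine IL-7, stood at 82.9, 64.2 and 164 RPKM. *Il9r* stood at 6.08, 1.94 and 5.28. The list median was -0.20, -0.18 and -0.20, close to that of all genes.

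Of 22 transcription regulators of the follicular program, 21 exceeded 5 RPKM. In αA against N 2 were called lower, *Pou2af1* and *Lef1*, beside 2.81% of all genes. With TMM neither of them reached the 2-fold limit in this comparison. In PαA against αA *Prdm1* and *Cebpa* were called lower and *Id3* and *Klf2* higher, beside 2.45% and 2.18%. By TPM *Id3* stood at 32.5 in αA and 63.5 in PαA, short of the 2-fold limit. In PαA against N 5 were called lower (*Maf*, *Pou2af1*, *Lef1*, *Prdm1* and *Cebpa*) and 1 higher (*Klf2*), beside 7.77% and 2.57%. *Maf*, a known activator of *Il21* and *Il4*, stood at 105, 84.5 and 43.3 RPKM. *Klf2*, the factor that drives *S1pr1* and opposes follicular fate, stood at 54.3, 56.0 and 178 RPKM. *Bcl6*, the defining repressor of follicular T cells, stood at 9.16, 5.96 and 4.71 RPKM and passed the rule in no comparison. The list median was -0.22, -0.32 and -0.73.

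**Figure D5:**
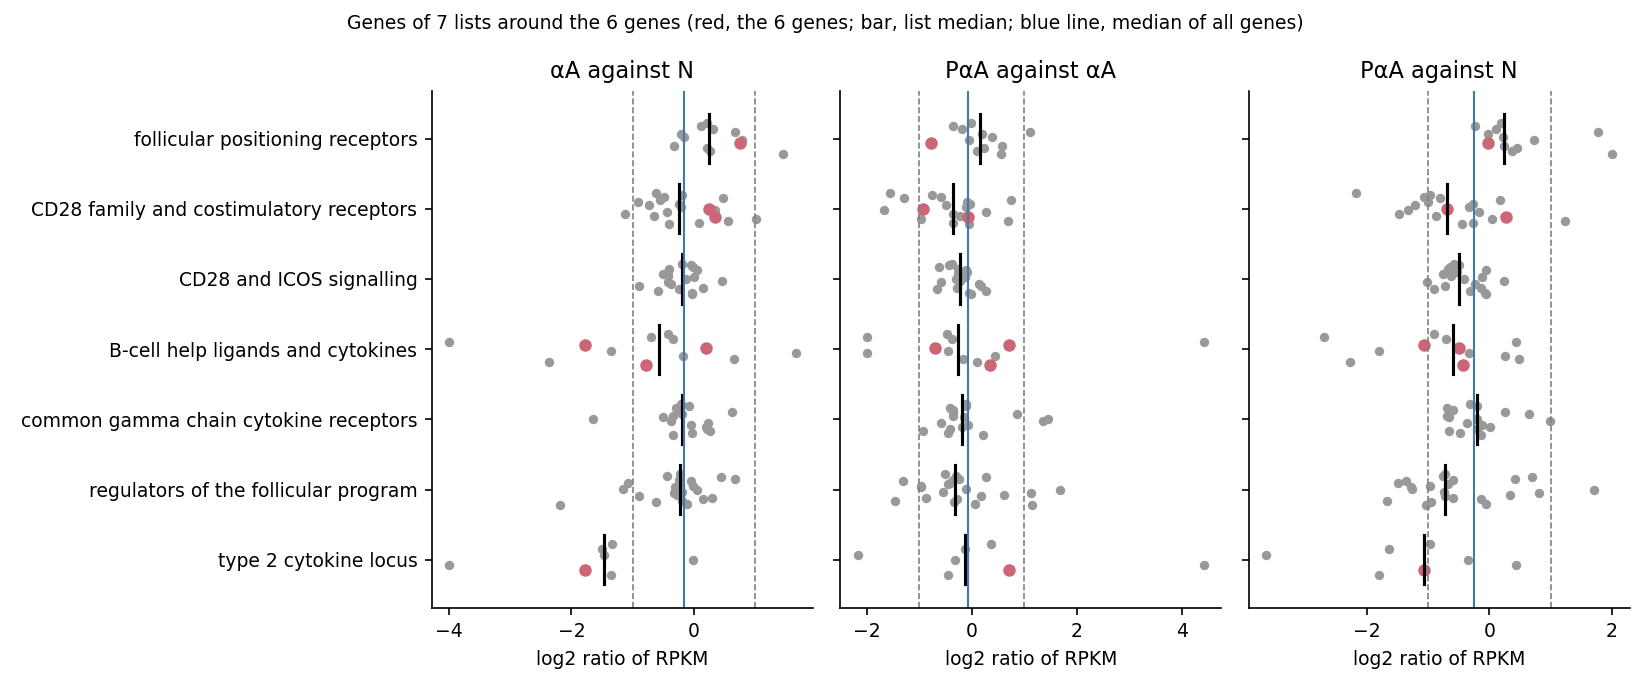
Log2 ratio of RPKM (x axis) of each gene above 1 RPKM in 7 lists (y axis) for the 3 comparisons, with the 6 genes in red, list medians as black bars, the median of all genes as a blue line and dashed lines at 2-fold. The type 2 cytokine locus, a list drawn around *Il4*, has the lowest list median in αA against N (-1.47). Of its 7 genes 3 exceeded 5 RPKM, and 2 of these, *Il4* and *Il13*, were called lower, beside 2.81% of the 7017 genes past that level. Both passed the level through N alone, so these calls are in part fixed by the filter.

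Of the 17 genes at the loci of *Cxcr5*, *Icos*, *Cd28*, *Cd40lg* and *Il21*, these included, 11 exceeded 1 RPKM. *Ctla4* was the 1 called, lower in PαA against αA and in PαA against N, beside 2.45% and 7.77% of all genes. The list median was 0.20, -0.49 and -0.50. *Gm37039*, a transcript model inside *Icos*, had 0 reads in each library.

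For each of the 6, the genes with the most similar pair of ratios (αA against N and PαA against αA) were sought among 5931 other genes with an RPKM above 5 in 1 or more libraries, and with at least 30 exon reads and at least 80% unique reads in every library. Likeness is the distance between the pairs in log2 units over 3 libraries, and so describes these libraries only. *Icos* was closest to *Il21r* (distance 0.02), then *Slc41a1* and *Foxp1*. *Cd40lg* was closest to *Chd1*, *Myo1f* and then *Tnfsf11* (distance 0.04), which encodes RANK ligand, another TNF family member, and stood at 33.9, 19.5 and 25.6 RPKM. *Cxcr5* was closest to *Csf1r* (0.09), the macrophage growth factor receptor, at 6.25, 10.6 and 6.62 RPKM, then *Cgrrf1* and *Naglu*. *Il21* was closest to *Cdca8*, *Armt1* and *Pmvk*, and *Cd28* to *Nadk2*, *Amz2* and *Ostc*. *Il4* was closest to *Lgals7* (0.12), *Arc* and *Ptpn13*. Within a distance of 0.2 there were 230 genes for *Cd28*, 122 for *Il21*, 60 for *Cd40lg*, 45 for *Icos*, 12 for *Cxcr5* and 2 for *Il4*. Few genes lie near any large ratio, so these numbers follow in part from the size of the ratios. For *Il4* the counting intervals of the 2 ratios (-2.18 to -1.38 and 0.26 to 1.17) are wider than 0.2, so its nearest genes and their number are not closely known.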

How the data were processed

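Poly(A) RNA of sorted TFR cells was sequenced in 3 libraries, 1 for each genotype. The authors aligned single reads to GRCm38 and counted them in CLC Genomics Workbench with default settings. They deposited, per gene, whole-number counts of exon, unique exon, exon-exon, intron and gene reads, with no normalization. The deposited RPKM is exon reads divided by exon length and library total, and the deposited TPM is RPKM rescaled to one sum. The annotation release is not given in the sources used here. File coordinates of the 6 genes match GENCODE models on GRCm38.

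Genes with an exon length of 0 (3715 of 25759) were left out. The column named expression value holds exon reads, so reading the study's filter as RPKM above 5 and 2-fold is a choice. Ratios have exact Clopper-Pearson intervals and levels Poisson intervals, both 95%. No test across genes was possible and no p-value is given. Alternatives were TPM, TMM (edgeR 4.0.16, factors on the counts only), median-of-ratios factors, unique reads, RPKM above 1 or 10, 1.5-fold and a pseudocount of 1. The filter and intervals were tested on simulated data. Named genes are the 6, the targeted genes and sort markers, the called or else the 3 highest genes of each list, the 3 nearest in likeness, overlapping genes and the leading gene of each cell list; *Il4ra*, *Il21r*, *S1pr2*, *Bcl6*, *Gata3*, *Il2*, *Tgfb1*, *Tnfsf8*, *Ifng*, the cell markers that do not lead their list and the uncalled genes of the type 2 cytokine locus lie outside that rule and were chosen after their values were seen. Some results are left out here. The genes and lists were chosen with earlier results of these data known. Python 3.11.15, pandas 2.3.3, numpy 2.4.6 and scipy 1.17.1 were used.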

Additional observations from a re-analysis of the deposited data

How the results depend on the processing

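Under TPM, TMM, median-of-ratios factors, unique reads and a pseudocount of 1, 17 of the 18 ratios of the 6 genes kept their direction; *Cxcr5* in PαA against N did not, at -0.02 by RPKM against 0.21 with TMM and 0.22 with median-of-ratios factors. No paired analysis was possible because each genotype has 1 library and the labels give no replicate numbers. Of the 6 genes, the number past the rule in αA against N was 1, but 0 with RPKM above 10 and 3 with 1.5-fold. In PαA against αA it was 0, but 1 with TPM (*Icos*) and 4 with 1.5-fold. In PαA against N it was 1, but 0 with TMM, with median-of-ratios factors, with RPKM above 10 and with a pseudocount of 1, and 2 with 1.5-fold. Over all genes, 298, 325 and 725 passed in αA against N, PαA against αA and PαA against N. With TPM in both the level and the ratio 558, 632 and 1539 passed, with RPKM above 1 978, 1016 and 1715, with RPKM above 10 146, 171 and 392, and with 1.5-fold 988, 1033 and 1966. A pseudocount of 1 left 194 in αA against N and 215 in PαA against αA. Looser thresholds admit more genes by construction; the cause of the other changes was not tested. Of 90 alternative values of single ratios 37 lay outside their counting interval, as did 1 of 18 intron shares, and 102 of 204 list medians moved by 0.1 or more. Depth limits *Il4* most, with 68 reads in αA, and no setting replaces mice: a spread between animals is not known for any value.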
